A study of Mus musculus with 12 samples.

Results

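The ATF4 stress-response regulators examined here are 10 genes, Atf4, Atf5, Atf3, Ddit3, Cebpg, Trib3, Chac1, Nupr1, Sesn2 and Ddit4, matched by name among the 39423 genes of the count table. They were selected on their values in these same libraries, so their levels and differences are given as a description with no p-value. RNA sequencing was performed on 3T3-L1 cells, a mouse preadipocyte line, transfected either with a nontargeting siRNA (siCtrl) or with one directed at PRMT1 (siPRMT1), an enzyme that methylates arginines in proteins. All cells were then induced with DMI, a cocktail of dexamethasone, 3-isobutyl-1-methylxanthine and insulin that turns preadipocytes into adipocytes, and harvested at day 1 (24 h) or day 3 (72 h), with 3 libraries in each of the 4 conditions. Every library therefore comes from 1 cell line that was transfected and received DMI, and no untransfected or uninduced cells were analysed here. The sources do not say which PRMT1 siRNA was used. The paper speaks of independent experiments for its data in general, and neither it nor the labels say for these libraries that replicates were separate cultures, so the p-values below measure only the spread between these libraries. In bulk RNA, fewer cells that express a gene and less RNA per cell cannot be told apart.

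ATF4 is the transcription factor of the integrated stress response. Kinases that sense lack of amino acids, misfolded protein in the endoplasmic reticulum (ER), double-stranded RNA or lack of heme phosphorylate the translation factor eIF2, which slows translation in general but raises that of the Atf4 and Atf5 mRNAs. ATF4 then binds CCAAT/enhancer binding protein (C/EBP)-ATF response elements, called CARE, as a dimer with partners such as C/EBPγ, and switches on genes of amino acid supply together with further regulators and feedback inhibitors.

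All 10 genes were matched by symbol to a RefSeq promoter table of GRCm38.p6, which gives 250 bases before and 50 bases after the annotated start, with 11 promoters because Atf5 has 2. The CARE core was searched as TGATGNAA on both strands and stood in the promoters of Atf3, Chac1, Nupr1 and Trib3, that is 4 of the 11 promoters (36.4%), beside 1304 of all 32851 promoters of the table (3.97%). The 4 are printed to show where the letters lie, 5′ to 3′ on the strand of the gene, with the match in capitals. In all 4 the match lies in reverse orientation, so the capitals show the reverse complement of the searched letters. For Atf3, Chac1 and Nupr1 the 250 bases before the start are shown, and for Trib3 30 bases just after the start.
Atf3 (chr1:191183334-191183583, minus strand): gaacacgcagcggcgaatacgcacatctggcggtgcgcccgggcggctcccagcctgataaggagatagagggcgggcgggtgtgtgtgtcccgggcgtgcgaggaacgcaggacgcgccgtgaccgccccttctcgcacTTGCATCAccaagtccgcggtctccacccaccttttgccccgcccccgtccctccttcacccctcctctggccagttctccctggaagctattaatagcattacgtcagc
Chac1 (chr2:119350992-119351241, plus strand): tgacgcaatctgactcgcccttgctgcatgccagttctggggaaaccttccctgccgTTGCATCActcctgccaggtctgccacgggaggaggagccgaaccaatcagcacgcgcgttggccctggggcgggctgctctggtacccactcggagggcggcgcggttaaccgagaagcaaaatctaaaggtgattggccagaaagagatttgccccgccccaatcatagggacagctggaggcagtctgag
Nupr1 (chr7:126625471-126625720, minus strand): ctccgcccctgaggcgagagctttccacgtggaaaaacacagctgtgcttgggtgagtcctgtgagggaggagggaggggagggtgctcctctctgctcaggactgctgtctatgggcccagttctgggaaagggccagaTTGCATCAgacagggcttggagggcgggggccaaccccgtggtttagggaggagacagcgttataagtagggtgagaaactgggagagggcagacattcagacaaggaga
Trib3 (chr2:152344028-152344057, minus strand): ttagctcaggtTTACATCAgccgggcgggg
Counted from the start, with -1 as the last base before it, the match runs from -110 to -103 in both Atf3 and Nupr1, from -193 to -186 in Chac1 and from 15 to 22 in Trib3. The cAMP response element TGACGTCA was found in 0 of the 11 promoters and in 1.79% of all, and CCAAT in 8 of 11 and in 37.4% of all. Among the amino acid synthesis enzymes taken up further on, 13 of 15 genes had a promoter in the table, and 4 of their 14 promoters (28.6%) held the CARE core. Over the 4 lists of ATF4 target genes together, 41 of 58 genes had a promoter, which is under 80%, so the check is void for them. None of the 3 searched motifs overlaps another in these promoters. A match is a stretch of letters and no evidence that a factor was bound.

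Prmt1 was lower in every siPRMT1 library than in every siCtrl library of the same day. Its level was 82.9, 83.4 and 91.3 FPKM (counts divided by gene length and by library size) in siCtrl and 43.8, 38.6 and 41.4 FPKM in siPRMT1 cells at day 1, a log2 fold change of -1.11 (standard error, SE, 0.0758). At day 3 the log2 fold change was -0.88 (SE 0.0883). The libraries held 15116462 to 42357137 counts on genes. Within a condition the chi-square per gene between 2 libraries ran from 4.14 to 15.8 for 10 of the 12 pairs, and was 30.8 and 50.6 for the 2 pairs with siCtrl replicate 3 at day 1, which stands apart. All 6 preadipocyte markers (Dlk1, Pdgfra, Pdgfrb, Thy1, Col1a1 and Zfp423) were above 1 FPKM in each condition. The summed level of 7 adipocyte markers (Fabp4, Adipoq, Plin1, Lpl, Cebpa, Pparg and Cidec) was 147 to 153 FPKM in siCtrl and 111 to 126 FPKM in siPRMT1 cells at day 1, and 2695 to 2910 FPKM in siCtrl and 2104 to 2288 FPKM in siPRMT1 cells at day 3. Adipocyte markers thus moved with the knockdown at both days, and their part in the results on the regulators was not tested. Of 5 macrophage and blood markers, Ptprc had 0 counts in all libraries and Cd68 reached 2.35 FPKM, and their sum was 1.76 to 1.89 FPKM in siCtrl and 2.45 to 2.86 FPKM in siPRMT1 cells at day 1, and 2.29 to 2.55 FPKM at day 3. The sum of 4 epithelial markers was at most 0.12 FPKM at day 1, and at day 3 its median was 11.3 FPKM in siCtrl (highest 11.4) and 6.63 FPKM in siPRMT1 cells (lowest 6.36, highest 6.64), most of it Krt8, while Epcam and Cdh1 stayed at or below 0.02 FPKM. The sum of 3 endothelial markers was 0.11 to 0.21 FPKM at day 1, and 0.75 to 0.87 FPKM in siCtrl and 0.49 to 0.56 FPKM in siPRMT1 cells at day 3, and that of 3 muscle markers at most 0.03 FPKM with Myod1 at 0 counts. The part of these markers in the results was not tested either.

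By the sign of the log2 fold change alone, 9 of the 10 regulators were higher in siPRMT1 than in siCtrl cells at day 1, and 9 of the 10 were lower at day 3. Of the day 3 values, those of Sesn2 (-0.13, SE 0.0753), Atf4 (-0.13, SE 0.0677) and Cebpg (-0.07, SE 0.0782) could not be told apart from 0. For Sesn2 and Cebpg the libraries of both groups overlapped at day 3. The day 1 differences were greatest for Trib3 (2.96-fold higher), Chac1 (2.37-fold) and Atf3 (2.29-fold), and the day 3 differences for Trib3 (1.94-fold lower) and Nupr1 (1.78-fold lower). In 8 of the 10 the difference was positive at day 1 and negative at day 3, the exceptions being Atf3 and Cebpg. Of the 13225 genes tested at both days, 25.7% had these signs. The members were chosen with this pattern in view, so the counts describe it and do not test it. Fold changes are from edgeR counts after TMM normalization, with 3 libraries on each side.

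**Figure D1:**
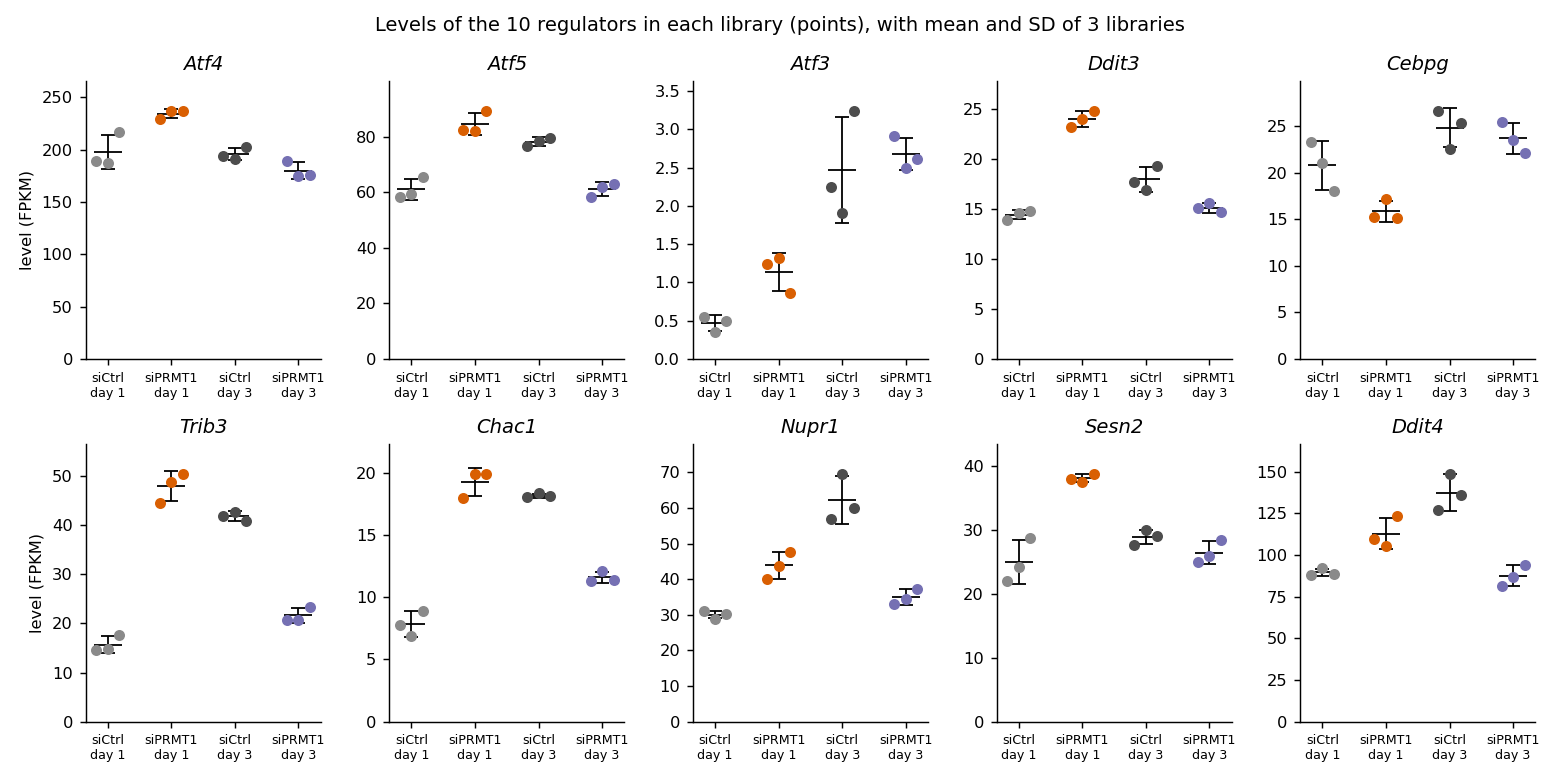
Level of each of the 10 regulators (vertical axis, FPKM, starting at 0) in the 12 libraries, with 1 panel per gene and the 4 conditions side by side. Points are libraries, the wide bar is the mean and the error bars are the SD of 3 libraries, and Trib3 and Chac1 are low in siCtrl day 1 and siPRMT1 day 3 and high in the other 2 conditions.

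Atf4 itself had the highest level of the 10 in all 4 conditions and differed little. It lies on chromosome 15 from 80255184 to 80257545 of GRCm38, the build of all positions given here, on the plus strand, with 3 exons. Its level was 189, 188 and 217 FPKM in siCtrl and 229, 237 and 237 FPKM in siPRMT1 cells at day 1, and 194, 191 and 202 FPKM in siCtrl and 189, 175 and 176 FPKM in siPRMT1 cells at day 3. The log2 fold change was 0.20 (SE 0.0669) at day 1 and -0.13 (SE 0.0677) at day 3. The siPRMT1 libraries were all above the siCtrl libraries at day 1 in FPKM, but the groups overlapped at day 1 after TMM normalization where siCtrl replicate 3 (406 CPM) lay above the siPRMT1 values of 396, 403 and 401 CPM, and at day 3 the siPRMT1 libraries were all lower. Without siCtrl replicate 3 the day 1 value was 0.26.

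Atf5, a close relative of Atf4 whose mRNA is translated under the same control, lies on chromosome 7 from 44812256 to 44816658, minus strand. It stood at 58.4, 59.4 and 65.3 FPKM in siCtrl and 82.4, 82.1 and 89.3 FPKM in siPRMT1 cells at day 1. At day 3 it stood at 76.5, 78.5 and 79.6 FPKM in siCtrl and 58.3, 61.8 and 63.0 FPKM in siPRMT1 cells. The groups did not overlap at either day and lay in opposite orders, with log2 fold changes of 0.42 (SE 0.0692) and -0.36 (SE 0.0667). Its exons share 82 bases with Nup62 on the opposite strand, and the strand setting of the counting is not given in the sources used here, so reads of that stretch cannot be told apart. Nup62 had a log2 fold change of 0.21 (SE 0.0895) at day 1 and -0.12 (SE 0.0746) at day 3.

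Ddit3 encodes CHOP, a C/EBP relative induced by ATF4 that takes part in stress-induced cell death, and lies on chromosome 10 from 127290793 to 127296291, plus strand. Its level at day 1 was 13.9, 14.6 and 14.8 FPKM in siCtrl and 23.2, 24.0 and 24.8 FPKM in siPRMT1 cells, a log2 fold change of 0.69 (SE 0.0691). At day 3 it was 17.7, 16.9 and 19.3 FPKM in siCtrl and 15.1, 15.6 and 14.7 FPKM in siPRMT1 cells, a log2 fold change of -0.26 (SE 0.0793). Again the 3 siPRMT1 libraries were all above at day 1 and all below at day 3. Ddit3 shares 137 exon bases with Mars, the methionyl-tRNA synthetase gene on the opposite strand, whose log2 fold change was 0.38 (SE 0.0660) at day 1 and -0.22 (SE 0.0642) at day 3, and the shared reads cannot be told apart.

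Atf3, a stress-induced factor of the same bZIP class, lies on chromosome 1 from 191170296 to 191183333, minus strand. It was the lowest of the 10 in every condition, with 15 to 153 counts per library. At day 1 it stood at 0.55, 0.35 and 0.50 FPKM in siCtrl and 1.24, 1.32 and 0.86 FPKM in siPRMT1 cells, without overlap. At day 3 the siCtrl values of 2.24, 1.91 and 3.24 FPKM enclosed the siPRMT1 values of 2.91, 2.50 and 2.61 FPKM. The log2 fold change was 1.19 (SE 0.246) at day 1 and 0.08 (SE 0.169) at day 3. The sign at day 3 depended on the libraries used, with -0.05 without siCtrl replicate 2 and 0.35 without siCtrl replicate 3.

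Cebpg encodes C/EBPγ, a partner with which ATF4 binds DNA, and went the other way from the rest at day 1. It lies on chromosome 7 from 35046422 to 35056566, minus strand. The level at day 1 was 23.3, 21.1 and 18.1 FPKM in siCtrl and 15.2, 17.2 and 15.2 FPKM in siPRMT1 cells, so every siPRMT1 library was lower. Values at day 3 overlapped, at 26.7, 22.6 and 25.4 FPKM in siCtrl and 25.5, 23.5 and 22.2 FPKM in siPRMT1 cells. The log2 fold change was -0.44 (SE 0.108) at day 1, or -0.54 without siCtrl replicate 3, and -0.07 (SE 0.0782) at day 3.

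Trib3, a pseudokinase that binds ATF4 and CHOP and dampens their activity, showed the greatest difference of the 10 at both days. The gene lies on chromosome 2 from 152337425 to 152344060, minus strand, and its CARE letters are printed above. Its level was 14.5, 14.8 and 17.7 FPKM in siCtrl and 44.5, 48.9 and 50.5 FPKM in siPRMT1 cells at day 1. By day 3 the order was turned, with 42.0, 42.7 and 40.9 FPKM in siCtrl and 20.8, 20.8 and 23.4 FPKM in siPRMT1 cells. The lowest library of the higher group exceeded the highest library of the other at both days, and the log2 fold changes were 1.57 (SE 0.0932) and -0.96 (SE 0.0753). The difference between the days, day 3 minus day 1, was -2.50 (SE 0.125).

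Chac1, an enzyme that degrades glutathione, followed Trib3. It lies on chromosome 2 from 119351242 to 119354326, plus strand. At day 1 it stood at 7.79, 6.87 and 8.93 FPKM in siCtrl and 17.99, 19.9 and 19.9 FPKM in siPRMT1 cells, and at day 3 at 18.02, 18.3 and 18.1 FPKM in siCtrl and 11.3, 12.1 and 11.4 FPKM in siPRMT1 cells. There was no overlap at either day, and the siPRMT1 day 1 values covered the siCtrl day 3 values. The log2 fold change was 1.24 (SE 0.108) at day 1 and -0.65 (SE 0.0827) at day 3.

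Nupr1, a small chromatin-associated protein induced by stress, lies on chromosome 7 from 126623246 to 126625470, minus strand. Its level at day 1 was 31.0, 28.9 and 30.2 FPKM in siCtrl and 40.2, 43.8 and 47.7 FPKM in siPRMT1 cells. At day 3 it was 56.9, 69.6 and 60.1 FPKM in siCtrl and 33.2, 34.5 and 37.3 FPKM in siPRMT1 cells. The groups were apart at both days, and the difference was the larger at day 3, with log2 fold changes of 0.49 (SE 0.0900) and -0.83 (SE 0.0964).

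Sesn2 and Ddit4 both encode inhibitors of the growth kinase complex mTORC1. Sesn2, on chromosome 4 from 132492804 to 132510456, minus strand, also binds leucine, and stood at 22.1, 24.1 and 28.8 FPKM in siCtrl and 38.0, 37.4 and 38.8 FPKM in siPRMT1 cells at day 1. At day 3 its values overlapped, at 27.7, 29.9 and 29.0 FPKM in siCtrl and 25.0, 25.9 and 28.5 FPKM in siPRMT1 cells, and the log2 fold changes were 0.56 (SE 0.0956) and -0.13 (SE 0.0753). The Sesn2 groups were thus apart at day 1 only. Ddit4, also named REDD1, on chromosome 10 from 59949675 to 59951770, minus strand, stood at 88.2, 92.2 and 88.9 FPKM in siCtrl and 109.6, 105 and 124 FPKM in siPRMT1 cells at day 1. At day 3 it stood at 127, 149 and 136 FPKM in siCtrl and 81.6, 87.0 and 94.1 FPKM in siPRMT1 cells. For Ddit4 the difference was the larger at day 3, with log2 fold changes of 0.28 (SE 0.0735) and -0.66 (SE 0.0801), and the groups did not overlap at either day.

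**Figure D2:**
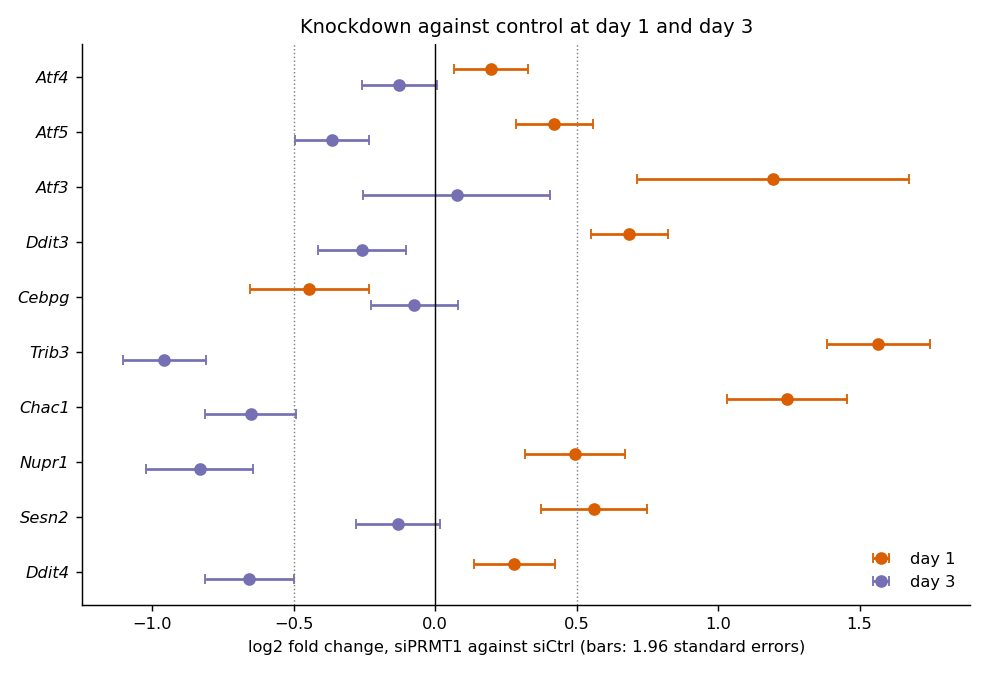
log2 fold change of siPRMT1 against siCtrl cells (horizontal axis) for each regulator at day 1 (orange) and day 3 (violet), with bars of 1.96 SE and dotted lines at 0.5 in both directions. Day 1 points lie right of 0 except Cebpg (-0.44) and day 3 points left of 0 except Atf3 (0.08).

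Genes were counted as called when edgeR's quasi-likelihood test gave a Benjamini-Hochberg adjusted p below 0.05 over all genes and the log2 fold change exceeded 0.5 in size. All 10 regulators passed the filter on low counts. At day 1, 5 regulators were past both thresholds in the higher direction (Atf3, Ddit3, Trib3, Chac1 and Sesn2), beside 1.95% of the 13689 genes tested, and 0 in the lower direction, beside 1.61%. Sesn2 lay just inside the fold threshold at 0.56 and Nupr1 just outside at 0.49. At day 3, 0 were past them in the higher direction, beside 2.84% of the 14039 genes tested, and 4 in the lower direction (Trib3, Chac1, Nupr1 and Ddit4), beside 3.80%. In CPM after TMM normalization, the siPRMT1 libraries lay entirely above the siCtrl libraries at day 1 for 8 regulators, beside 10.4% of all genes, and entirely below for 1, Cebpg, beside 20.8%. At day 3 they lay entirely below for 7, beside 16.5%, and entirely above for 0, beside 18.4%. Nothing is read from these shares, since the same comparisons were used to choose the genes. The median log2 fold change of the 10 was 0.53 at day 1 and -0.31 at day 3, beside 0.01 at both days over all genes tested. Without siCtrl replicate 3 at day 1, the same 5 regulators were past the thresholds in the higher direction, with log2 fold changes of 1.65 for Trib3, 1.32 for Chac1, 1.199 for Atf3, 0.70 for Ddit3 and 0.67 for Sesn2, and Cebpg was past them in the lower direction. The count at day 1 was 3 without siCtrl replicate 2 or without any 1 of the 3 siPRMT1 replicates, where Atf3 and Sesn2 were no longer past the thresholds. The share of all genes called with these libraries left out is not given, so nothing is read from these counts either.

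The difference between the days, in 1 model of all 12 libraries, was negative for 9 of the 10 regulators. Day 3 minus day 1 was -2.50 for Trib3, -1.88 (SE 0.135) for Chac1 and -1.31 (SE 0.136) for Nupr1. The other 6 with a negative value ranged from -0.30 (SE 0.0970) for Atf4 to -1.08 (SE 0.320) for Atf3, and Cebpg alone was positive at 0.39 (SE 0.134). Across all 14612 genes tested for this difference, 3.47% were called negative and 4.77% positive. The median of the 10 was -0.92, beside 0.02 over all genes.

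During differentiation, 7 of the 10 regulators were higher at day 3 than at day 1 in siCtrl cells and lower in siPRMT1 cells. In siCtrl cells 9 of the 10 were higher at day 3 than at day 1, with log2 fold changes of 2.30 (SE 0.255) for Atf3, 1.35 (SE 0.103) for Trib3, 1.14 (SE 0.119) for Chac1, 0.98 (SE 0.111) for Nupr1 and 0.55 (SE 0.0853) for Ddit4. These 5 were past the thresholds, beside 22.7% of all genes in that direction, and 0 were in the lower direction, beside 20.4%. Atf4 was nearly level in siCtrl cells at -0.08 (SE 0.0820). In siPRMT1 cells 8 of the 10 were lower at day 3, led by Trib3 at -1.16 (SE 0.0702), Chac1 at -0.75 (SE 0.0766), Ddit3 at -0.68 (SE 0.0631) and Sesn2 at -0.54 (SE 0.0626). These 4 were past the thresholds, beside 17.4% of all genes, and Atf3 (1.21, SE 0.163) and Cebpg (0.57, SE 0.0737) were past them in the higher direction, beside 19.0%. The courses use the same libraries as the knockdown comparisons and add no independent values.

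**Figure D3:**
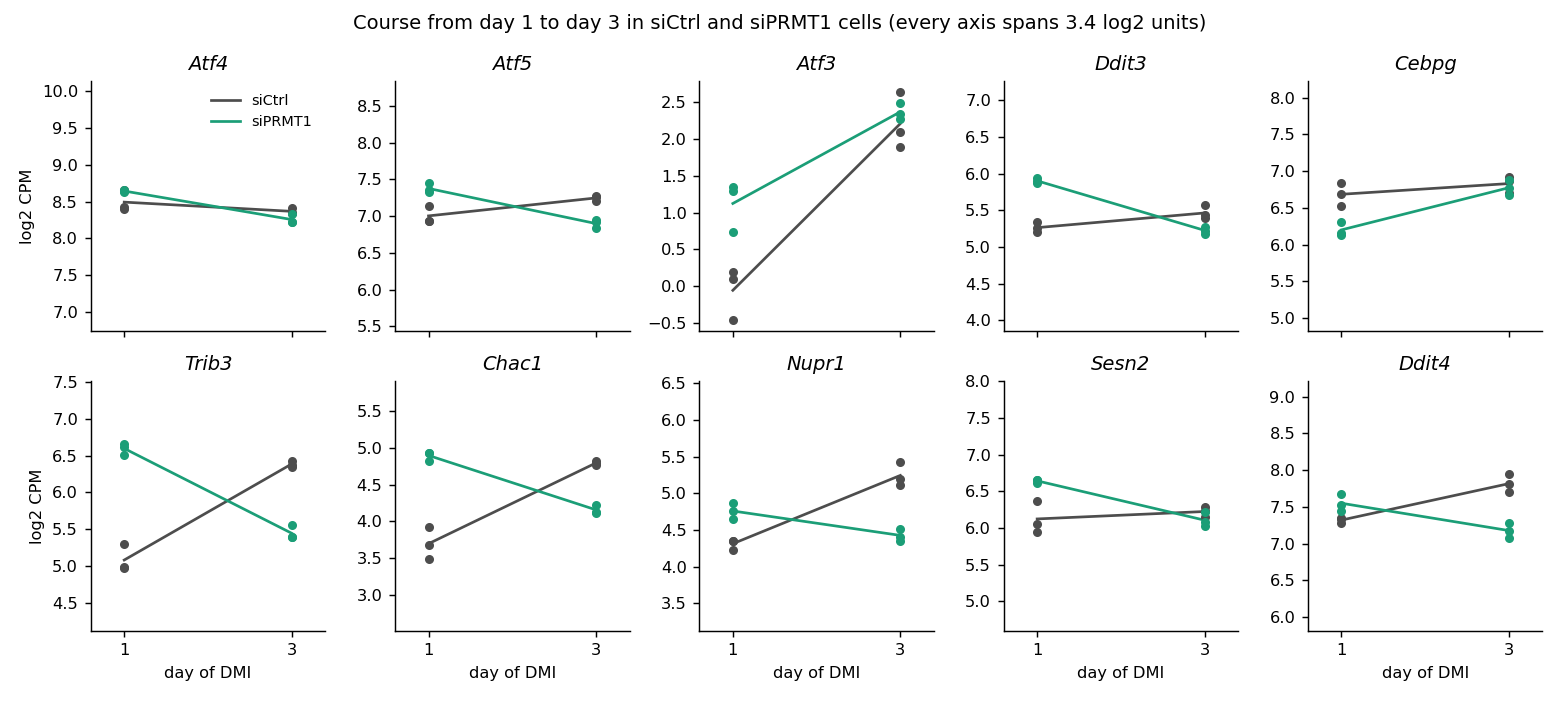
log2 CPM after TMM normalization (vertical axis, spanning 3.4 units in each panel) at day 1 and day 3 of DMI in siCtrl (grey) and siPRMT1 (green) cells. Points are libraries and lines join the means of 3, and the lines cross for Trib3, Chac1, Nupr1, Ddit4, Atf5, Ddit3, Sesn2 and Atf4 but not for Atf3 or Cebpg.

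Among the 10, levels per length ranged from a mean of 0.467 FPKM for Atf3 to 198 FPKM for Atf4 in siCtrl cells at day 1. Atf4, Ddit4 and Atf5 held ranks 1, 2 and 3 in FPKM in all 4 conditions, with no overlap between neighbours. Trib3 had rank 7 of 10 in siCtrl cells at day 1, where it overlapped with Ddit3, and rank 4 in siPRMT1 cells, where it overlapped with Nupr1. At day 3 Trib3 had rank 5 in siCtrl and rank 7 in siPRMT1 cells. Chac1 and Ddit3 overlapped in siCtrl cells at day 3, as did Sesn2 with Cebpg and Cebpg with Trib3 in siPRMT1 cells.

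Patterns over the 4 condition means were compared by the root mean square difference of mean log2 CPM, each gene centred on its own mean, among the genes that averaged 1 CPM or more. Ddit3 and Sesn2 were the closest pair of regulators, at 0.0601. Of all genes compared, Chac1 was the one most like Trib3, at 0.165. Adm2, the gene of the peptide hormone adrenomedullin 2, was the second closest gene to Trib3 outside the 10, at 0.227 after the predicted gene Gm14434 at 0.212, and Aldh18a1, a proline synthesis enzyme, was the second closest to Ddit3, at 0.0395 after Sap30 at 0.0286. The closest to Chac1 were Gm34102 (0.109) and Stbd1 (0.120), to Nupr1 Rab11b_1 (0.0232) and the glucose transporter gene Slc2a1 (0.0755), and to Ddit4 Hoxb3 (0.0338) and Vars2 (0.0397). For the other 5 these were Hic1 and Gabre_1 for Atf4, Snora81 and Erdr1 for Atf5, Ttn and Serpinb9b for Atf3, Dusp22 and Tspan14 for Cebpg, and Gm20219 and LOC108168313 for Sesn2. Several of these patterns are nearly flat, and the likeness rests on 4 means.

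Families that hold genes ATF4 is known to switch on were taken as 4 lists, with 58 genes in all and none of the 10 regulators. The lists were of amino acid synthesis enzymes, amino acid transporters, cytosolic tRNA synthetases and other response genes. Their genes are called target genes for short, though not every one need be switched on by ATF4. At day 1, 15 of the 55 that were tested were called higher in siPRMT1 cells, beside 1.95% of all genes tested. In the lower direction 0 were called, beside 1.61%, while 47 had a positive and 8 a negative log2 fold change. At day 3, 1 was called higher, beside 2.84%, and 3 lower, beside 3.80%, with 14 positive and 41 negative. Nothing is read from the few calls at day 3. In the lists below, a gene that rose or fell is a called gene, and the same shares of all genes apply. The median log2 fold change of the 55 was 0.29 at day 1 and -0.11 at day 3. In 37 of the 55 (67.3%) the difference was positive at day 1 and negative at day 3, beside 25.7% of the 13225 genes tested at both days. The interaction of siRNA and day was called negative for 21 of the 55, beside 3.47% of all genes, and positive for 0, beside 4.77%. These lists too were written with earlier results of these data known.

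**Figure D4:**
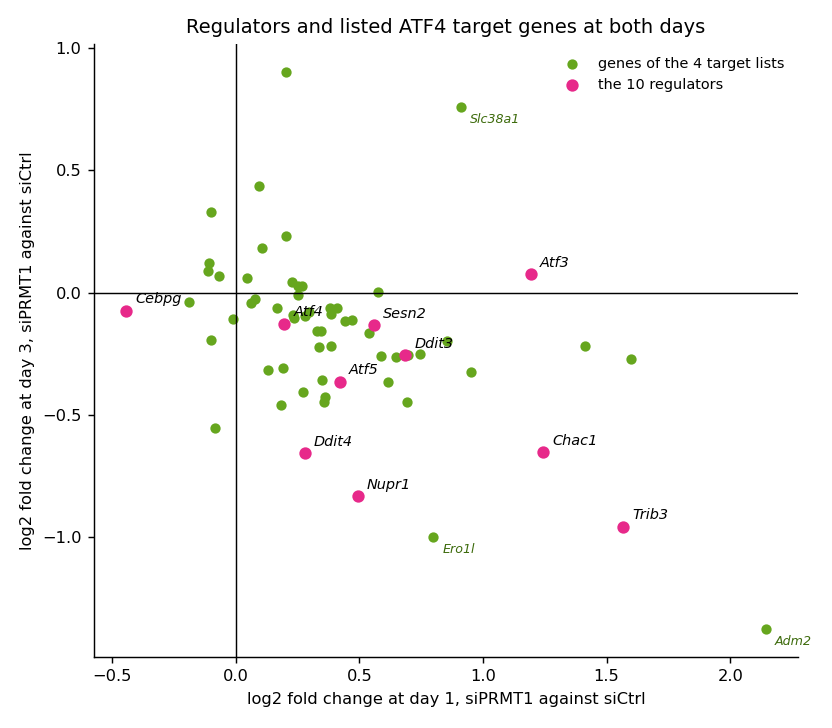
log2 fold change of siPRMT1 against siCtrl cells at day 1 (horizontal axis) and day 3 (vertical axis) for the 10 regulators (pink, named) and 55 genes of the 4 target lists (green). In the lower right part, positive at day 1 and negative at day 3, lie 8 of the 10 regulators and 37 of the 55 target genes.

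Of the 14 amino acid synthesis enzymes tested, 5 rose and 0 fell at day 1, and all 14 had a positive log2 fold change. Gpt2, which converts pyruvate to alanine, rose by 0.69 (SE 0.0698, adjusted p = 0.0030), as did Psph of serine synthesis by 0.70 (SE 0.0756, adjusted p = 0.0034) and the mitochondrial folate enzyme gene Aldh1l2 by 0.86 (SE 0.0865, adjusted p = 0.0030). At day 3, 0 were called, with 13 of the 14 negative, and the interaction was called negative for 9.

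Of the 12 amino acid transporters, 5 rose at day 1. The glycine transporter gene Slc6a9 went from 5.36 ± 0.349 to 14.7 ± 1.17 FPKM (mean ± SD, n = 3; log2 fold change 1.41, adjusted p = 9.8e-04 in edgeR). Slc7a5, the light chain of a leucine transporter, rose by 0.95 (adjusted p = 0.0020) and Slc7a1, which carries arginine and lysine, by 0.75 (adjusted p = 0.0030). At day 3, Slc38a1 rose by 0.76 (adjusted p = 0.0033) and Slc43a1 fell by 0.55 (adjusted p = 0.022), both at about 1 FPKM or less. The call on Slc43a1 at day 3 was lost without siCtrl replicate 2 (adjusted p = 0.063), siCtrl replicate 3 (adjusted p = 0.086) or siPRMT1 replicate 2 (adjusted p = 0.11) and with DESeq2 (adjusted p = 0.070). Slc38a1 also rose at day 1 (0.91, adjusted p = 0.0063), a call lost without siPRMT1 replicate 1 (adjusted p = 0.0503).

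Of the 18 cytosolic tRNA synthetases, Aars, for alanine, rose by 0.54 at day 1 (SE 0.0657, adjusted p = 0.0043) and the other 17 were not called, while 0 were called at day 3. The list had 14 positive and 4 negative values at day 1 (median 0.23), and 6 and 12 at day 3 (median -0.05). Mars (0.38, adjusted p = 0.015), Tars (0.28, adjusted p = 0.025) and Nars (0.27, adjusted p = 0.038) passed the adjusted p below the fold threshold at day 1. At day 3 Cars (-0.31, adjusted p = 0.0054), Vars (-0.36, adjusted p = 0.024) and Mars (-0.22, adjusted p = 0.030) did so. Of the 11 other ATF4 response genes tested, 4 rose at day 1. Eif4ebp1, a translation inhibitor, rose by 0.62 (adjusted p = 0.0056) at day 1. Adm2 and Ero1l, an ER oxidase, rose at day 1 and fell at day 3. Adm2 had low levels, at 0.367 ± 0.0503 FPKM in siCtrl and 1.74 ± 0.624 FPKM in siPRMT1 cells at day 1 and 1.14 ± 0.248 and 0.437 ± 0.0777 FPKM at day 3 (mean ± SD, n = 3). Its log2 fold change was 2.14 (SE 0.325, adjusted p = 0.0097) at day 1 and -1.38 (SE 0.270, adjusted p = 0.0027) at day 3. Ero1l went from 31.0 ± 4.37 to 55.9 ± 8.23 FPKM at day 1 (log2 fold change 0.80, adjusted p = 0.014) and from 70.8 ± 10.7 to 35.5 ± 4.40 FPKM at day 3 (-0.9996, adjusted p = 1.4e-05). The day 1 calls were lost for both without siCtrl replicate 2, siPRMT1 replicate 2 or siPRMT1 replicate 3, with adjusted p of 0.051, 0.054 and 0.062 for Adm2 and 0.055, 0.066 and 0.078 for Ero1l, and for Ero1l also without siPRMT1 replicate 1 (adjusted p = 0.057). Under a filter of at least 10 counts in every library, Adm2 was not tested at day 1.

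Upstream of ATF4, 1 of 15 genes for eIF2 kinases, eIF2B and their regulators rose at day 1 and 0 fell. This was Ppp1r15a, which encodes GADD34, the phosphatase subunit that reverses eIF2 phosphorylation and is itself induced by ATF4. Ppp1r15a went from 11.3 ± 1.15 to 21.3 ± 2.01 FPKM at day 1 (log2 fold change 0.87, SE 0.0992, adjusted p = 0.0035) and from 11.2 ± 1.24 to 7.73 ± 1.09 FPKM at day 3 (-0.54, SE 0.113, adjusted p = 0.0042). The day 3 value without siCtrl replicate 2 or without siPRMT1 replicate 1 was -0.44, which is below the fold threshold. The 4 kinase transcripts were not called at either day. Eif2ak1, the heme-regulated kinase, passed the adjusted p below the fold threshold at both days, at -0.41 (adjusted p = 0.013) and -0.22 (adjusted p = 0.038). Others of the list did so at a single day. These were Eif2b2 at day 1 (0.46, adjusted p = 0.015), and Impact (0.46, adjusted p = 7.5e-04) and Eif2b4 (-0.24, adjusted p = 0.046) at day 3. All of these genes are named here after their values were seen.

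Of the 18 ER chaperones and folding factors tested, 1 rose at day 1 and 1 fell at day 3, both times Herpud1, an ER membrane protein of protein degradation that ATF4 also induces, with log2 fold changes of 0.57 (adjusted p = 0.0081) and -0.55 (adjusted p = 1.2e-04). The day 1 call of Herpud1 was lost without siCtrl replicate 2 (adjusted p = 0.054), siPRMT1 replicate 1 (adjusted p = 0.052) or siPRMT1 replicate 3 (adjusted p = 0.064). The median log2 fold change of the list was -0.14 at day 1 and -0.05 at day 3. Of 8 genes for ER stress sensors and their factors, 0 were called at either day. Xbp1 passed the adjusted p below the fold threshold at both days, at -0.47 (adjusted p = 0.0071) and -0.41 (adjusted p = 6.4e-04). Ern1 did so at day 1 (0.37, adjusted p = 0.035), and its interaction of siRNA and day was called at -0.53 (adjusted p = 0.012). Both are named here after their values were seen.

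Paralogs of the regulators and 2 other stress or hormone programs were counted beside them. Of 9 paralogs tested, Cebpa, a relative of Cebpg and an adipocyte factor, fell at day 1 by 0.88 (adjusted p = 0.016), a call lost without any 1 of the 3 siPRMT1 replicates (adjusted p = 0.066, 0.068 and 0.082), and 0 were called at day 3. Cebpa was lower at day 3 too, at -0.46 (adjusted p = 4.0e-04), which is below the fold threshold. Sesn1 at day 1 (-0.33, adjusted p = 0.041) and Trib2 at day 3 (0.30, adjusted p = 0.026) also passed the adjusted p below that threshold. Of 13 listed p53 targets, 0 were called at day 1, while Eda2r (0.77, adjusted p = 8.7e-04) and Fas (0.73, adjusted p = 0.0014) rose at day 3. That list holds none of the regulators, but the 2 programs share genes. The paper names Sestrin2, the product of Sesn2, among p53 targets that rose after PRMT1 knockdown. It measured this by quantitative RT-PCR at day 2 of DMI, a time with no library here. Of genes induced by glucocorticoids such as the dexamethasone of DMI, Per1 rose at day 1 (0.55, adjusted p = 0.0079) and Klf15 fell at day 3 by 1.27 (adjusted p = 4.2e-06), with 11 tested at day 1 and 12 at day 3. The call on Per1 was lost without siCtrl replicate 2 (adjusted p = 0.054), siPRMT1 replicate 1 (adjusted p = 0.051) or siPRMT1 replicate 3 (adjusted p = 0.062).

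Among the 13225 genes tested at both days, 26 were called higher at day 1 and lower at day 3, that is 10.6% of the 245 called higher at day 1 and 7.41% of the 351 called lower at day 3. Trib3 and Chac1 were 2 of the 26, and Ppp1r15a, Herpud1, Adm2 and Ero1l were also among them.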

How the data were processed

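mRNA of 3T3-L1 cells was sequenced in 12 libraries, 3 in each of 4 conditions, grouped by the labels. The authors filtered and mapped the reads and deposited whole-number counts per gene without normalization. The submitters' processing notes name cutadapt 1.11, HISAT2 2.1.0 and RSEM 1.2.6 and the build mm10, with no role for each, and the counting tool and its strand setting are not given in the sources used here. The FPKM values were deposited beside the counts, and recomputing them from the counts, the deposited gene length (bases, another unit) and the library totals gave differences of at most 0.005. A name with a number suffix is a further copy of a gene name in the table. Library totals were 15116462 to 42357137 counts.

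Counts were tested with edgeR 4.0.16 (R 4.3.3, quasi-likelihood, TMM, filterByExpr) at each day, 3 against 3 libraries, from day 1 to day 3 in each arm, and for the interaction over all 12 libraries. P-values were adjusted by Benjamini-Hochberg over all genes tested, and SE was taken as log2 fold change over the root of the F statistic, without sign. The regulators and the gene lists were chosen with earlier results of these data known, so no p-value is given for the regulators and no list was tested as a set. Named genes are Prmt1, the 10 regulators, up to 3 called genes of each list with the smallest p at each day, 3 target genes with the lowest interaction p, and 2 genes of nearest pattern for each regulator. In the lists of eIF2 regulators, tRNA synthetases, ER stress sensors and paralogs, genes past the adjusted p but not the fold threshold are named too. These were picked after their values were seen, and the other lists name no gene on that ground. Positions are those of the deposited table on GRCm38. The alternatives were DESeq2 1.42.0, RLE normalization, other filters on low counts, a replicate block, all 12 libraries in 1 model, no fold threshold, each library left out, and limma 3.58.1 on log2(FPKM + 1) or log2(FPKM + 0.1), with genes of a mean of at least 1 FPKM or without that filter.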

Additional observations from a re-analysis of the deposited data

Results flagged for a closer look

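For 6 regulators every siPRMT1 library lay above every siCtrl library at day 1 and below every siCtrl library at day 3, in CPM after TMM normalization. Over all genes tested, 10.4% lay entirely above at day 1 and 16.5% entirely below at day 3. The share of all genes that did both was not counted, so nothing is read from the count of 6. The differences of these 6 regulators between the days, day 3 minus day 1 on the log2 scale, were -2.50 for Trib3, -1.88 for Chac1, -1.31 for Nupr1, -0.92 for Ddit3, -0.92 for Ddit4 and -0.76 for Atf5. The regulators were chosen with these values known, so this difference between the days was not tested for them.

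For 15 other named genes the interaction of siRNA and day was called in edgeR's quasi-likelihood test over all 12 libraries. These genes were named for small p-values within a day or in the interaction itself, in these same libraries. Their adjusted p-values here therefore describe them and add no independent support. The interaction was -3.50 for Adm2 (adjusted p = 1.4e-04), -1.78 for Ero1l, -1.61 for Slc6a9, -1.39 for Ppp1r15a, -1.25 for Slc7a5, -1.12 for Gpt2, -1.10 for Herpud1, -1.03 for Aldh1l2, -0.98 for Slc7a1, -0.96 for Eif4ebp1, -0.93 for Psph and -0.68 for Aars, with adjusted p of at most 5.8e-04. Outside the ATF4 genes it was -1.34 for Klf15 (adjusted p = 0.037), -0.61 for Per1 (adjusted p = 0.0032) and 1.09 for Fas (adjusted p = 0.0022). Day 3 libraries differ from day 1 libraries in adipocyte marker levels as well, and the part of that in these interactions was not tested.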

How the results depend on the processing

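At day 3 the same 4 regulators were past the thresholds in the lower direction and 0 in the higher direction with DESeq2, RLE normalization, the 2 other filters on low counts, the replicate block, 1 model of all 12 libraries and each library left out, and calls were not made on the FPKM scale. With no library left out, 418 (DESeq2) to 561 (no filter on low counts) of all genes were called lower at day 3, beside 534 in the main fit. Under the same 2 settings 298 and 517 were called higher, beside 399. At day 1, leaving out 1 library at a time gave 3 to 5 regulators past the thresholds in the higher direction and 0 to 1 in the lower direction. Sesn2 was no longer past them without siCtrl replicate 1, where its log2 fold change was 0.48, and neither Atf3 nor Sesn2 was without siCtrl replicate 2 or any 1 siPRMT1 replicate, where values ran from 1.05 to 1.36 for Atf3 and from 0.54 to 0.55 for Sesn2. Nupr1 came past them without siCtrl replicate 1 (0.52) and Cebpg without siCtrl replicate 3 (-0.54). With no threshold on the fold change, 7 regulators were called higher and 1 lower (Cebpg) at day 1 and 6 lower at day 3 (Atf5 and Ddit3 in addition), 27 target genes were called higher at day 1, and 4 were called higher and 19 lower at day 3. The share of all genes called under this looser rule was not counted, so nothing is read from these numbers. With 1 library left out, the target genes called higher at day 1 numbered 10 to 17. The share of all genes called with 1 library left out is not given, so nothing is read from these counts. The log2 values of the regulators moved by less than 1 SD of replicates in 270 of 270 values from counts and in 55 of 58 on the FPKM scale, where Atf3 at day 1 was 0.54 on log2(FPKM + 1) and Chac1 at day 3 was -0.61. All alternatives refit the same libraries, and leaving out 1 of 3 can shift a group mean only in part. The count of 270 is therefore no independent support.

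Whether replicate numbers pair the samples cannot be decided with 3 libraries per condition. Deviations of same-numbered libraries correlated at -0.0574 to 0.274 at day 1 (2 of 3 pairs over 0.1) and at -0.0226 to 0.200 at day 3 (1 of 3). Differently numbered libraries correlated at -0.327 to 0.274 at day 1 and at -0.233 to 0.171 at day 3. The main tests treated the samples as unpaired. With a replicate block, 5 regulators were past the thresholds in the higher direction and 0 in the lower direction at day 1, and 0 and 4 at day 3, with 15 target genes called higher at day 1 and 3 lower at day 3. Of all genes, 296 were called higher and 240 lower at day 1 with this block, and 426 and 548 at day 3. In the main fit these were 267 and 220 at day 1, and 399 and 534 at day 3. Precision is limited by 3 libraries per condition and, for Atf3 and Adm2, by few counts.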
